A study of Mus musculus with 10 samples.

Results

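Slurp1, Klk10, Stfa1, Stfa2, Stfa3 and Sprr1a, genes of squamous and secretory epithelium, were followed across 10 bulk RNA sequencing libraries from mouse mammary cells grown in collagen/BME gels (BME, basement membrane extract). These 6 of 55486 genes in the count table were chosen with their levels in tumor cells grown with fibroblasts and grown alone in view, so their values in that contrast are a description and carry no test. Tumor cells came from lines 13-MCB-17 and 10-SJK-221, derived from end-stage tumors of WapCre mice with floxed Cdh1, a model of invasive lobular carcinoma (ILC) in which Cre acts in mammary epithelium. Normal fibroblasts (NFs) came from mammary glands of 8-week-old female mTmG mice on an FVB/n background, whose cells switch from red to green once Cre has acted, and glands of several mice were pooled for sorting. NFs were divided by CD26, a surface peptidase encoded by Dpp4, and CD26+ NFs were turned green with an adenovirus carrying Cre, so exposure to the virus and the subset cannot be told apart. Gel 1 held CD26- and CD26+ NFs, gels 2 and 3 held tumor cells of lines 13-MCB-17 and 10-SJK-221 alone, and gels 4 and 5 held both NF subsets with tumor cells of the same lines in that order. After 7 days the cells were sorted by color, which gave 2 libraries each of tumor cells alone, co-cultured tumor cells, co-cultured CD26- NFs and co-cultured CD26+ NFs, and 1 library of each NF subset alone. The sources used here do not say that cultures of a line were prepared separately, nor whether a line is a clone, and p-values measure the spread between these libraries.

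The libraries held 14142334 to 18408940 counts, and levels are given as CPM, the counts scaled to the library total. A gene with 0 counts could still have had up to 3 counts, or 0.163 to 0.212 CPM depending on the library, a limit that covers counting error only, as the reads carried no molecular identifiers and so are not independent. Cdh1 had 139.9 to 269 CPM in tumor cells and 0 to 5.23 CPM in NFs, and gene-level counts do not show whether the floxed exons were lost. Dpp4 had 0.281 to 0.771 CPM in CD26+ NFs and at most 1 count in each other library. All 10 epithelial markers were above 3 counts in each tumor library. They summed to 4152 and 5514 CPM in tumor cells alone, 4393 and 5145 CPM in co-cultured tumor cells, 0.869 and 1.12 CPM in NFs alone, and between 119 and 324 CPM in NFs from the shared gels. The 10 fibroblast markers summed to 43.6 and 73.5 CPM in tumor cells alone and to 135 and 209.6 CPM in co-cultured tumor cells, against sums of 26551 to 78763 CPM in NFs.

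Stratified squamous epithelia such as epidermis end their differentiation by building a cornified envelope, a protein shell that transglutaminases cross-link beneath the cell membrane. Small proline-rich (SPRR) proteins, among them Sprr1a, are building blocks of that shell, kallikreins such as Klk10 are secreted serine proteases, and stefins (the Stfa genes) are inhibitors of cysteine cathepsins that act largely inside cells. Slurp1 encodes a small secreted protein of the Ly6/uPAR family that acts on nicotinic acetylcholine receptors, and mouse stefin genes are also known from neutrophils and other myeloid cells.

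All positions are on GRCm38. Slurp1 lies on chromosome 15 at 74724318 to 74728034 (minus strand), Klk10 on chromosome 7 at 43781035 to 43785410 (plus strand) and Sprr1a on chromosome 3 at 92483952 to 92485895 (minus strand). The stefin genes lie close together on chromosome 16, Stfa1 at 36276951 to 36285373 (plus strand), Stfa2 at 36403992 to 36408457 (minus strand) and Stfa3 at 36450537 to 36455392 (minus strand). To show the letters behind the shared and unshared parts of the promoters, the bases directly before the annotated start are printed for the 4 members with a RefSeq promoter entry whose levels could be compared between groups. They were read from RefSeq windows on GRCm38.p6, which hold 250 bases before and 50 after each start, and 5 of the 6 members matched an entry. Only bases outside annotated exons are shown, 5′ to 3′ on the gene's strand, with capitals marking TGANTCA, the core bound by AP-1 factors, and the TATA box motif TATAAA.
Sprr1a, chr3:92485896-92486131, minus strand: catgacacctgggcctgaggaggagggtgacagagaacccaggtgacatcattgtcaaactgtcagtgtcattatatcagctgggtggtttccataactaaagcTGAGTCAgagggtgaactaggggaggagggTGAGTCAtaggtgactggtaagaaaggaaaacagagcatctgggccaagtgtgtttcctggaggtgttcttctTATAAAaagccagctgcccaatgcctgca
Klk10, chr7:43780804-43781034, plus strand: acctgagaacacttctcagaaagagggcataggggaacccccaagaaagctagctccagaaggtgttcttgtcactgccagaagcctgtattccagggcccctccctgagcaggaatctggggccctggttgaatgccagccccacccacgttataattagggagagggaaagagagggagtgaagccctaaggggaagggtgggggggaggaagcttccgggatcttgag
Stfa2, chr16:36408458-36408613, minus strand: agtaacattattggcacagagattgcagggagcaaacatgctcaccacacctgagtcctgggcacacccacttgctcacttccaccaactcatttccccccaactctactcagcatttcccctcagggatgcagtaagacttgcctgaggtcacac
Stfa3, chr16:36455393-36455642, minus strand: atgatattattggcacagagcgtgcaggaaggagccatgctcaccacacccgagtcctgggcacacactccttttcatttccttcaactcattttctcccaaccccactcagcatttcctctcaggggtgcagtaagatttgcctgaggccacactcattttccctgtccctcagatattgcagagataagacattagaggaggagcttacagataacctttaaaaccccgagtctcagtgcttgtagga

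The Sprr1a stretch held TGANTCA at 132 and 102 bases and TATAAA at 29 bases before the annotated start of the gene, counted to the first base of each match. Over both strands, TGANTCA occurred in 7.81% and TATAAA in 13.6% of 32851 promoter windows of the same length. Neither occurred in the windows of Klk10, Stfa1 and Stfa2, and the Stfa3 window held TGANTCA after the start, outside the printed stretch. CACCC, the core bound by KLF factors, occurred in 57.5% of windows, 4 times in that of Sprr1a, where the match on the reverse strand 105 bases before the annotated start overlaps a TGANTCA. It occurred 2 times in Klk10, 2 times in Stfa2, 3 times in Stfa3 and not in Stfa1. AACCNGTT, a Grainyhead-like motif found in 2.09% of windows, occurred in none of the 5. Aligned over the whole window, the stefin promoters were 78.9% (Stfa1 and Stfa2), 80.6% (Stfa1 and Stfa3) and 80.9% (Stfa2 and Stfa3) identical, whereas the other pairs of members were 43.6% to 48.9% identical. These matches describe letters in a window and do not show that a factor binds there.

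Tumor cells grown alone expressed 5 of the 6 genes, and in both lines each of these 5 was lower in co-culture. Slurp1 was at or near 0 counts in co-culture, Stfa2 and Klk10 were about an order of magnitude lower, Stfa3 was lower by an uneven amount, and Sprr1a differed least. In the fit across all genes, 22.3% of 13197 tested genes passed an adjusted p of 0.05 in tumor cells (10.8% higher and 11.5% lower in co-culture). Since the members were chosen on this contrast, nothing is read from their count against that share. In bulk libraries, fewer expressing cells and less RNA per cell cannot be told apart.

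Slurp1, the secreted Ly6/uPAR protein, had 20.04 CPM (369 counts) in 13-MCB-17 cells alone and 16.1 CPM (253 counts) in 10-SJK-221 cells alone, against 1 count in co-cultured 13-MCB-17 cells and 0 counts in co-cultured 10-SJK-221 cells. The 2 libraries of tumor cells alone were thus the only ones above 3 counts. In line 13-MCB-17 the ratio of alone to co-culture was 354, with 1 count in co-culture. Its 95% counting interval (exact Clopper-Pearson) was 63.2 to 14036, and with co-culture set to 3 counts it was 118. In line 10-SJK-221, with 0 counts in co-culture, the ratio was 94.1 with co-culture set to 3 counts. Its exact lower limit was 75.9. Which line had the larger Slurp1 fold cannot be read from these counts. Of the Slurp1 exon sequence, 10.98% overlaps exons of Them6, and 9.18% of its stretches of 54 bases (words of the read length) occur in Them6, so a part of its counts is uncertain where strand was not used.

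Klk10, a secreted serine protease, had 56.9 CPM (1047 counts) in 13-MCB-17 cells alone and 4.86 CPM (86 counts) with NFs. In 10-SJK-221 cells it had 111 CPM (1738 counts) alone and 13.2 CPM (232 counts) with NFs. In either culture 10-SJK-221 cells were higher. The level alone was 11.7-fold that in co-culture in 13-MCB-17 (interval 9.38 to 14.7) and 8.36-fold in 10-SJK-221 (interval 7.28 to 9.62).

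Stfa2, a stefin and the member with the highest level, had 153 CPM (2814 counts) in 13-MCB-17 cells alone and 9.45 CPM (167 counts) with NFs. In 10-SJK-221 cells it had 105 CPM (1654 counts) alone and 10.6 CPM (185 counts) with NFs. The co-cultured lines were closer to each other than the lines alone. The level alone was 16.2-fold that in co-culture in 13-MCB-17 (interval 13.8 to 19.03) and 9.97-fold in 10-SJK-221 (interval 8.56 to 11.7).

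Stfa3, its neighbor on chromosome 16, had 9.56 CPM (176 counts) in 13-MCB-17 cells alone and 0.622 CPM (11 counts) with NFs. In 10-SJK-221 cells it had 4.01 CPM (63 counts) alone and 0.913 CPM (16 counts) with NFs. The folds of 15.4 (interval 8.38 to 31.3) in 13-MCB-17 and 4.39 (interval 2.51 to 8.15) in 10-SJK-221 were further apart than for Stfa2. Stfa1 had 1 count in all libraries together, in 13-MCB-17 cells alone, so it was not detectable at this depth and no fold is given. Stfa1 shares 19.2% of its 54-base words with other stefin genes and Stfa2 shares 12.9% with Stfa2l1, so reads may have been split between copies, while Stfa3, Klk10 and Sprr1a shared none.

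Sprr1a, the envelope precursor, had 2.99 CPM (55 counts) in 13-MCB-17 cells alone and 0.848 CPM (15 counts) with NFs. In 10-SJK-221 cells it had 2.61 CPM (41 counts) alone and 1.83 CPM (32 counts) with NFs. The fold of 3.52 in 13-MCB-17 had an interval of 1.96 to 6.71, and the fold of 1.43 in 10-SJK-221 had an interval of 0.878 to 2.34 that includes no difference. Averaged over the 2 lines, the log2 change in co-culture was -3.67 ± 0.49 (SD, n = 2) for Stfa2, -3.31 ± 0.34 for Klk10, -3.04 ± 1.28 for Stfa3 and -1.17 ± 0.92 for Sprr1a. For Slurp1, at 1 and 0 counts in the co-cultured libraries, it was -6.72 with both set to 3 counts, a value given without a spread because it rests on that limit in both lines.

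**Figure D1:**
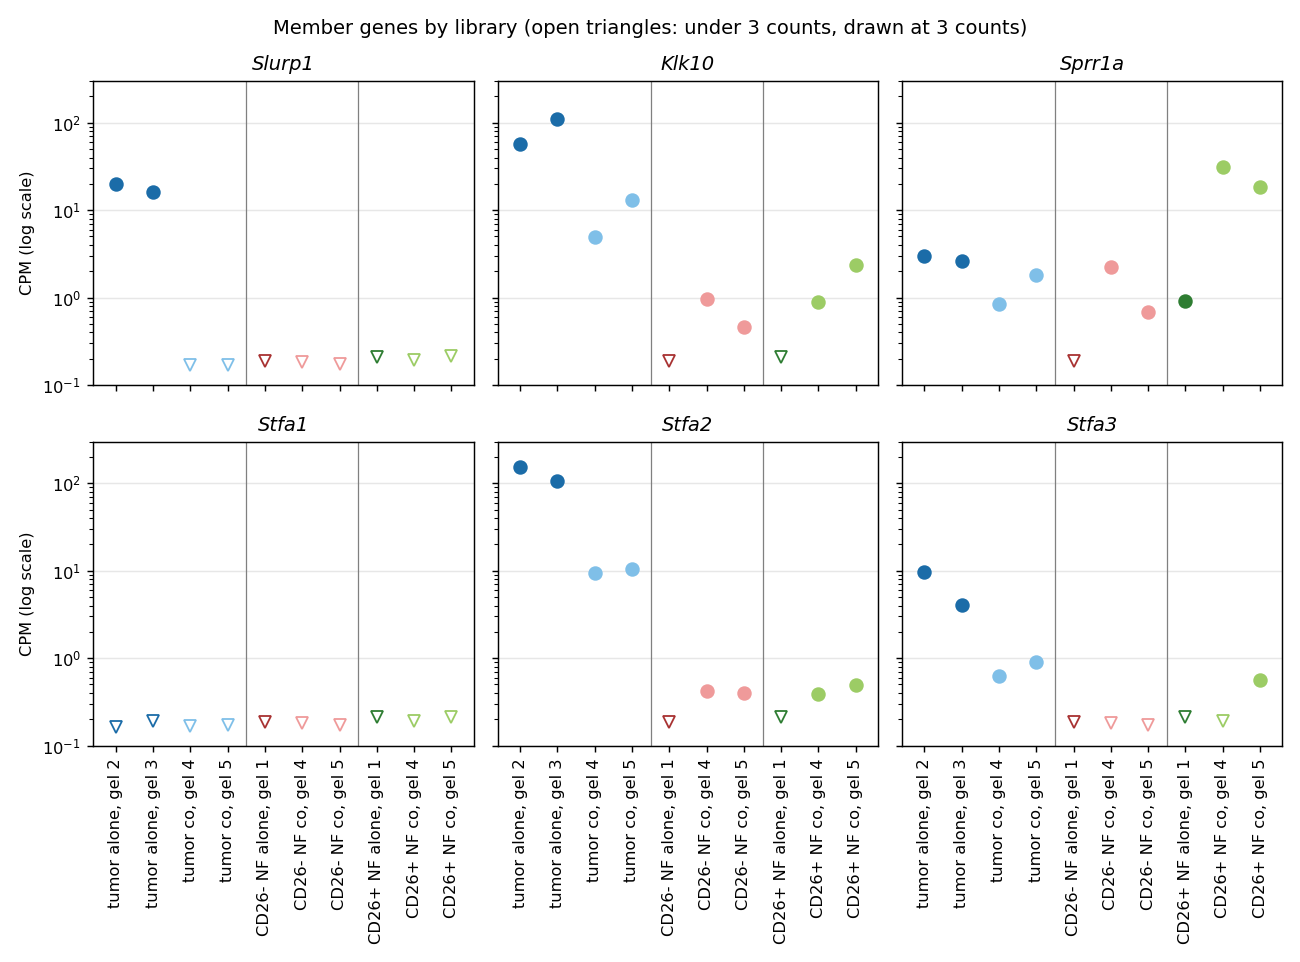
Level of each member in CPM (log axis) in each of the 10 libraries, grouped as tumor cells, CD26- NFs and CD26+ NFs, with open triangles drawn at 3 counts for libraries under that limit. Slurp1, Klk10, Stfa2 and Stfa3 were highest in tumor cells alone, Sprr1a reached 31.4 CPM in co-cultured CD26+ NFs, and Stfa1 was under the limit in each library.

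**Figure D2:**
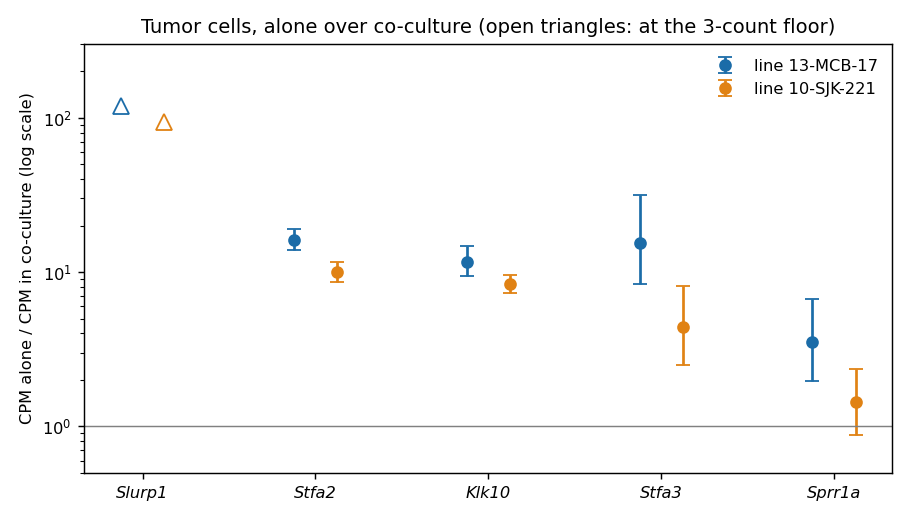
CPM in tumor cells alone divided by CPM in co-cultured tumor cells (log axis) for 5 members in lines 13-MCB-17 and 10-SJK-221, with 95% counting intervals and open triangles where co-culture was set to 3 counts. The fold was larger in 13-MCB-17 for the 4 genes with a measured ratio. The Slurp1 triangles are values that rest on the 3 counts and give no order of the lines. For Sprr1a in 10-SJK-221 the interval (0.878 to 2.34) crosses 1.

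The members also differed in level from each other. Per kilobase of exon, the order in tumor cells alone was Stfa2 (325 and 223 CPM per kb in 13-MCB-17 and 10-SJK-221), Klk10 (41.4 and 80.5), Stfa3 (23.2 and 9.73), Slurp1 (6.83 and 5.49) and Sprr1a (3.71 and 3.24). With 2 libraries a gene, no neighbors in that order overlapped. In co-cultured tumor cells Stfa2 (20.1 and 22.4 CPM per kb) stayed above Klk10 (3.54 and 9.64), whereas Stfa3 (1.51 and 2.22) and Sprr1a (1.05 and 2.26) overlapped, and Slurp1 was at 0.0193 CPM per kb or 0 counts.

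The lines themselves were compared with culture as a term, a contrast that had no part in choosing the genes, and 14.5% of 13197 tested genes passed (5.93% higher and 8.54% lower in 10-SJK-221). Klk10 alone among the 5 tested members passed, and it was higher in 10-SJK-221 by 1.06 on the log2 scale (SE 0.14, edgeR's quasi-likelihood test, adjusted p = 0.00226), in both cultures. Stfa3 had a log2 difference of -0.83 (SE 0.41, adjusted p = 0.223), Slurp1 of -0.43 (SE 0.27, adjusted p = 0.330), Stfa2 of -0.35 (SE 0.16, adjusted p = 0.199) and Sprr1a of 0.26 (SE 0.41, adjusted p = 0.722). The Klk10 call was lost when any 1 tumor library was left out (adjusted p from 0.303 to 0.491, with the spread taken from the 9 remaining libraries because 3 tumor libraries leave none) and when all 10 libraries entered the fit (adjusted p = 0.0679), while the other alternatives began at 1.06e-12.

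Genes of the same families and pathways were then counted in the tumor contrast, with members left out and the fold change of co-culture over alone tested in edgeR. The lists were chosen with earlier results of these data known, and genes are named from them by this same fold change. Their counts are thus a description and no independent support. Of all tested genes 11.5% were lower and 10.8% higher, and their median log2 fold change was 0.01. Genes with too few counts over the tumor libraries were not tested, so each count covers the tested genes only. Some of these reached the filter's level (10 counts in a library of median size) in 1 of the 2 groups only, so that they had to differ to be tested, and their number among the called genes is given beside each count where there were any. For such genes levels are given and no fold or p. Their folds still enter the medians, so a median is not read where a list holds such genes. Kallikreins other than Klk10 were lower in co-culture in 4 of 4 tested genes of 12 listed. For 2 of the 4, tested only through tumor cells alone, the filter fixed the direction. Klk6, 1 of these, had 1.52 and 9.93 CPM alone and 0.0566 and 0.342 CPM in co-culture. Klk7 fell by 1.98 (adjusted p = 0.00353) and Klk8, the most abundant with 107 and 203 CPM alone, fell by 1.49 (adjusted p = 0.000515). Of the 54-base words of Klk8, 21.4% occur in the gene 2310002F09Rik. Klk6, Klk7 and Klk8 all encode secreted proteases of epidermis, as does Klk10.

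Among other stefins and cystatins, 4 of 7 tested genes were lower, none was higher and 3 did not pass (median -0.98), and 2 of the 4 were tested only through tumor cells alone. Csta1, a stefin, fell by 2.19 (SE 0.41, adjusted p = 0.00690) from 51.9 and 16.4 CPM to 5.66 and 7.64 CPM. Cst6, a secreted cystatin and 1 of these 2, had 2.44 and 1.53 CPM alone and 0.0566 and 0.114 CPM in co-culture. Cstb, the stefin found in most cell types, fell by 0.67 (adjusted p = 0.00506). Of the cathepsins that stefins inhibit and their relatives, 2 of 8 tested genes were higher and 1 was lower (median -0.07). Ctsw rose by 5.14 (adjusted p = 5.05e-05) from 1.68 and 0.827 CPM to 36.3 and 59.7 CPM, Ctsc rose by 2.42 (adjusted p = 0.000362) and Ctsz fell by 0.39 (adjusted p = 0.0251).

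Protease inhibitors of epithelia were lower in 8 of 12 tested genes (1 of them, Cst6, tested only through tumor cells alone) and higher in none (median -0.66). Spink5, which inhibits epidermal kallikreins, fell by 2.71 (adjusted p = 0.00160), and Slpi, a secreted inhibitor of leukocyte elastase, fell by 1.38 (adjusted p = 0.00531) from 1308 and 199 CPM to 341 and 117 CPM. Among Ly6/uPAR genes other than Slurp1, 6 of 12 tested genes were lower (2 of them tested only through tumor cells alone), 1 was higher and 5 did not pass (median -0.88). Ly6d fell by 3.57 (SE 0.28, adjusted p = 0.000147) from 20.3 and 57.6 CPM to 2.83 and 3.19 CPM, Lypd3 fell by 1.69 (adjusted p = 3.86e-05), and Plaur, the urokinase receptor, fell by 1.07 (adjusted p = 0.0197). Ly6c1 rose by 0.77 (adjusted p = 0.00397). Of 16 nicotinic receptor subunits 3 passed the filter on low counts in tumor cells, and none of these was called in edgeR or DESeq2 (log2 median 0.08). Without the filter 10 were tested and 1 was higher.

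The cornified envelope list had 45 genes besides Sprr1a, of which 12 could be tested, and 9 of these were lower, none was higher and 3 did not pass (median -2.34). Of the 9, 3 were tested only through tumor cells alone, among them Sprr1b, the closest relative of Sprr1a, with 9.89 and 1.85 CPM alone and 0.113 and 0.114 CPM in co-culture, under the limit of 3 counts. Dmkn fell by 4.99 (adjusted p = 2.37e-05) and Sbsn by 3.56 (adjusted p = 0.000137), both secreted proteins of differentiating keratinocytes. Stratified epithelial keratins were lower in 6 of 9 tested genes (1 of them, Krt5, tested only through tumor cells alone) and higher in none (median -1.29). Krt16, a keratin of activated epidermis, fell by 3.49 (adjusted p = 0.000130) from 175 and 104 CPM to 10.01 and 14.7 CPM, although 35.4% of its 54-base words occur in other keratin genes. Krt5, of basal cells, had 4.998 and 6.17 CPM alone and 0.339 and 0.228 CPM in co-culture, and Krt4 fell by 1.79 (adjusted p = 0.0113).

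Transcription factors of squamous epithelium were lower in 7 of 13 tested genes (2 of them tested only through tumor cells alone) and higher in none (median -0.84). Zfp750, 1 of these 2, had 6.19 and 2.10 CPM alone and 0.396 and 0.171 CPM in co-culture. Ovol1 fell by 1.80 (adjusted p = 3.86e-05) and Elf3 by 1.07 (adjusted p = 0.000282), and all 3 are regulators of epithelial differentiation. Mammary secretory genes moved in both directions, with 2 of 12 tested genes higher, 4 lower and 6 not passed (median 0.13). Clu, a secreted chaperone, rose by 3.22 (adjusted p = 3.37e-05), and Cp, the copper carrier ceruloplasmin, rose by 2.81 (adjusted p = 0.000130). Muc4, a membrane mucin, fell by 2.88 (adjusted p = 5.55e-05) and Btn1a1, a protein of the milk fat globule membrane, fell by 2.07 (adjusted p = 0.000282).

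Markers of other cells moved in the same libraries, and their part in the members' values was not tested. Of 8 tested fibroblast markers 6 were higher in co-cultured tumor cells (median 4.11), and 3 of the 6 were tested only through co-culture. Col1a1, not 1 of these 3, had 3.10 and 1.78 CPM alone and 89.1 and 28.1 CPM in co-culture. Of the 10 epithelial markers 4 were lower and none higher (median -0.21), led by Rab25, which fell by 1.96 (adjusted p = 0.000293), and followed by Cldn4 and Cldn7 with falls of 0.75 and 0.73. The 15 neutrophil and myeloid markers summed to 475 and 141 CPM in tumor cells alone and to 135 and 64.1 CPM in co-culture. Most of that sum came from S100a8 (169 and 37.03 CPM alone, 40.3 and 13.4 CPM in co-culture) and Cd68 (299 and 93.1 CPM alone, 80.5 and 34.8 CPM in co-culture). Ptprc, the pan-leukocyte marker, had at most 0.127 CPM, and Csf3r had 0 counts in each tumor library. Of 5 tested myeloid markers 2 were lower and 1 was higher.

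**Figure D3:**
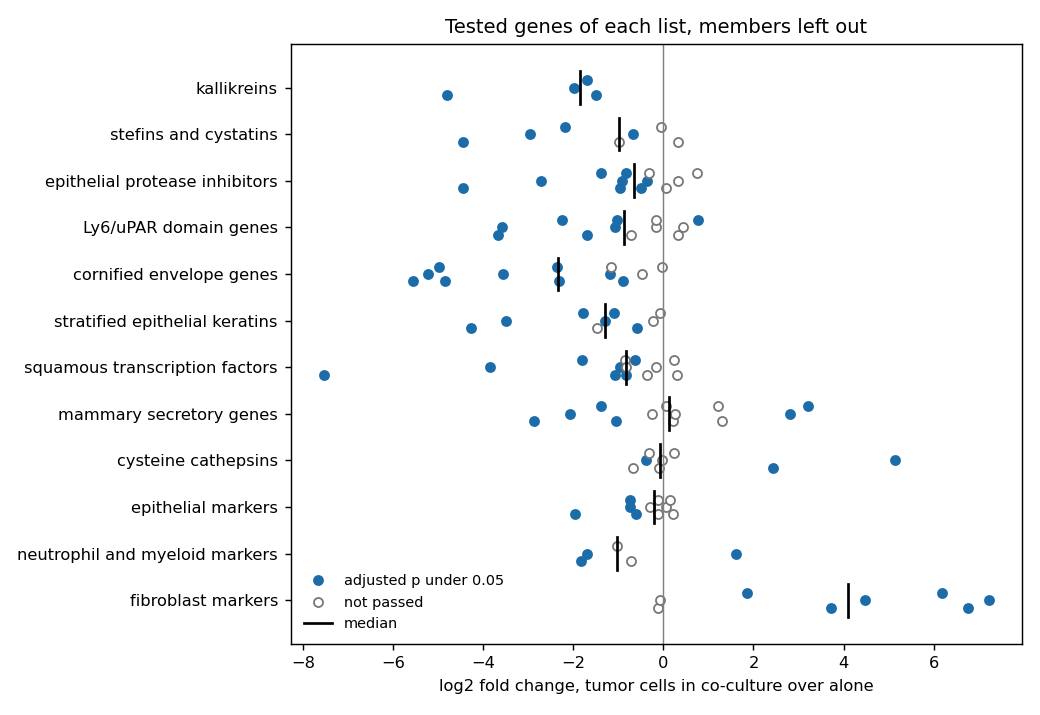
Log2 fold change of co-cultured tumor cells over tumor cells alone for each tested gene of 12 lists, members left out, with filled points for an adjusted p under 0.05, open points for the rest and a bar at the median. The medians ran from -2.34 for cornified envelope genes to 4.11 for fibroblast markers. Genes tested through 1 of the groups only, which had to differ to be tested, are included in the points and medians. They made up 4 of 12 cornified envelope genes and 3 of 8 fibroblast markers, so the order of the medians is not read.

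These list counts rest on the pairing by line, and their dependence on single tumor libraries could not be measured. Without the filter on low counts, 10 of 27 cornified envelope genes, 4 of 7 kallikreins, 4 of 11 stefins and cystatins, 8 of 15 protease inhibitors, 8 of 22 Ly6/uPAR genes, 8 of 12 keratins and 9 of 16 transcription factors were lower. Over all genes 1898 of 24015 were lower in that fit. With 3 tumor libraries no spread is left among them, so fits without 1 took it from all 9 remaining libraries, NFs included, and a lost call there is no measure of stability. With 1 tumor library left out in turn, the lower genes numbered 3 or 4 on the cornified envelope list, 1 or 2 for keratins and Ly6/uPAR genes, and 0 or 1 for kallikreins, stefins and cystatins, protease inhibitors, transcription factors and epithelial markers. Over the same fits mammary secretory genes had 0 to 2 lower and 2 or 3 higher, cathepsins 0 lower and 1 or 2 higher, fibroblast markers 4 or 5 higher, and myeloid markers 0 to 2 lower and 0 or 1 higher. DESeq2 called 8 cornified envelope genes, 5 transcription factors, 5 protease inhibitors, 3 kallikreins, 3 keratins, 3 Ly6/uPAR genes and 2 stefins and cystatins lower, and of these lists it called only 1 Ly6/uPAR gene higher. With all 10 libraries in 1 fit, 9 cornified envelope genes, 5 transcription factors, 5 protease inhibitors and 4 Ly6/uPAR genes were lower. So were 3 kallikreins, 3 stefins and cystatins, 2 keratins and 1 epithelial marker, and no Ly6/uPAR gene was higher. Without the line as a term no gene of any list passed in edgeR, where 2207 of all genes had an unadjusted p under 0.05.

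In NFs, Sprr1a stood apart from the other members. Sprr1a was highest in co-cultured CD26+ NFs, which goes against the description of these genes as genes of tumor cells. It had 31.4 CPM (489 counts) in gel 4 and 18.4 CPM (260 counts) in gel 5 in CD26+ NFs, against 0.912 CPM (13 counts) in CD26+ NFs alone. In CD26- NFs it had 2.24 CPM (37 counts) in gel 4, 0.691 CPM (12 counts) in gel 5 and 1 count alone. Each co-cultured NF library was above the alone library of its subset, and each CD26+ library was above the CD26- library of its gel. In CD26+ NFs the co-cultured level was 34.4-fold (interval 19.9 to 65.1) that alone in gel 4 and 20.1-fold (interval 11.6 to 38.4) in gel 5.

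Over the 6 NF libraries, with subset as a term, Sprr1a rose in co-culture by 4.75 on the log2 scale (SE 0.57, edgeR's quasi-likelihood test, adjusted p = 0.000134). In that comparison 48.8% of 15013 tested genes passed (25.9% higher and 22.9% lower). Klk10 had 0 counts in both NF libraries alone and entered the fit through the co-cultured NFs, so its test there is not read. In co-cultured CD26- NFs Klk10 reached 0.970 CPM (gel 4) and 0.460 CPM (gel 5), and in CD26+ NFs it reached 0.899 CPM (gel 4) and 2.33 CPM (gel 5). With the library alone set to 3 counts, Klk10 was 11.1-fold higher in CD26+ NFs of gel 5 and 2.47-fold higher in CD26- NFs of gel 5. The exact lower limits of these ratios were 8.52 and 1.58. Slurp1, Stfa1, Stfa2 and Stfa3 were too low in NFs to be tested. Only 1 gel held NFs alone, so an effect of co-culture and a property of gel 1 cannot be told apart. Without the subset term the adjusted p for Sprr1a was 0.0534, the highest of 12 alternatives that began at 2.86e-13.

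The subsets were compared after these values had been seen, with culture as a term, and 7.53% of 15013 tested genes passed (3.93% higher and 3.6% lower in CD26+ NFs). Sprr1a was higher in CD26+ NFs by 3.91 on the log2 scale (SE 0.42, edgeR's quasi-likelihood test, adjusted p = 0.00176), in 3 of 3 gels. The ratio of CD26+ to CD26- NFs was 14.01 (interval 10.02 to 20.1) in gel 4, 26.6 (interval 14.98 to 52.2) in gel 5 and 14.7 in gel 1, where 13 counts stood against 1 count and the interval was 2.21 to 624. Klk10 had a log2 difference of 1.00 between the subsets (SE 0.68, adjusted p = 0.399).

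Cornified envelope genes other than Sprr1a were measured in NFs in the same way. In co-culture against NFs alone, 9 of 14 tested genes were higher, 2 were lower and 3 did not pass. Of all tested genes 25.9% were higher and 22.9% lower. Among the 14, 8 were tested through 1 group only and had to differ to be tested, so nothing is read from the count. Of the 9 higher genes 7 were tested only through co-cultured NFs, and of the 2 lower genes 1, Scel, only through NFs alone. The higher genes included Sprr2d, Sprr2e, Sprr2f, Sprr2g and Sprr2h, neighbors of Sprr1a on chromosome 3 that encode related envelope precursors, and each had 0 counts in both NF libraries alone and so was tested only through the co-cultured NFs. Without a filter on low counts, 7 of 28 genes were higher, 2 were lower and 19 did not pass. Over all genes 3653 of 27367 were higher and 3302 lower in that fit. These genes and the further envelope genes named in NFs were picked after their values were seen. In gels 4 and 5 respectively, Sprr2e stood at 5.33 and 4.26 CPM in CD26- NFs, at 10.5 and 8.34 CPM in CD26+ NFs, and at 0.452 and 0.0570 CPM in tumor cells. For Sprr2d the CD26- libraries stood at 1.15 (gel 4) and 0.863 CPM (gel 5) and the CD26+ libraries at 5.46 and 6.79 CPM. Sprr2g had at most 1 count in CD26- NFs and reached 2.63 CPM (gel 4) and 1.56 CPM (gel 5) in CD26+ NFs. Tgm1 and Evpl, a cross-linking enzyme and a plakin of the envelope, rose by 2.41 (adjusted p = 0.000229) and 2.47 (adjusted p = 0.000143). Ppl fell by 1.73 (adjusted p = 0.00784). In the same fit 8 of 8 tested epithelial markers were higher, 7 of them tested only through co-cultured NFs. The part of epithelial RNA in the NF levels of the envelope genes was not tested.

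Between the subsets, 3 of the 14 genes were higher in CD26+ NFs and none was lower, against 3.93% higher and 3.6% lower of all tested genes. These were Sprr2d with a log2 difference of 2.42 (adjusted p = 0.0153), and Ivl, the envelope scaffold involucrin, and Sprr2g, both of which were tested only through CD26+ NFs and for which no fold is given. The co-culture count of 9 became 5 without CD26+ NFs alone, without CD26+ NFs of gel 5 or without the subset term. The count of 3 became 0 without CD26- NFs of gel 4, CD26- NFs of gel 5 or CD26+ NFs of gel 5, and 1 without CD26+ NFs of gel 4. Sprr2d and Sprr2e share 3.66% and 8.75% of their 54-base words with each other or Sprr2i, whereas Sprr2f, Sprr2g and Sprr2h share none with another gene.

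**Figure D4:**
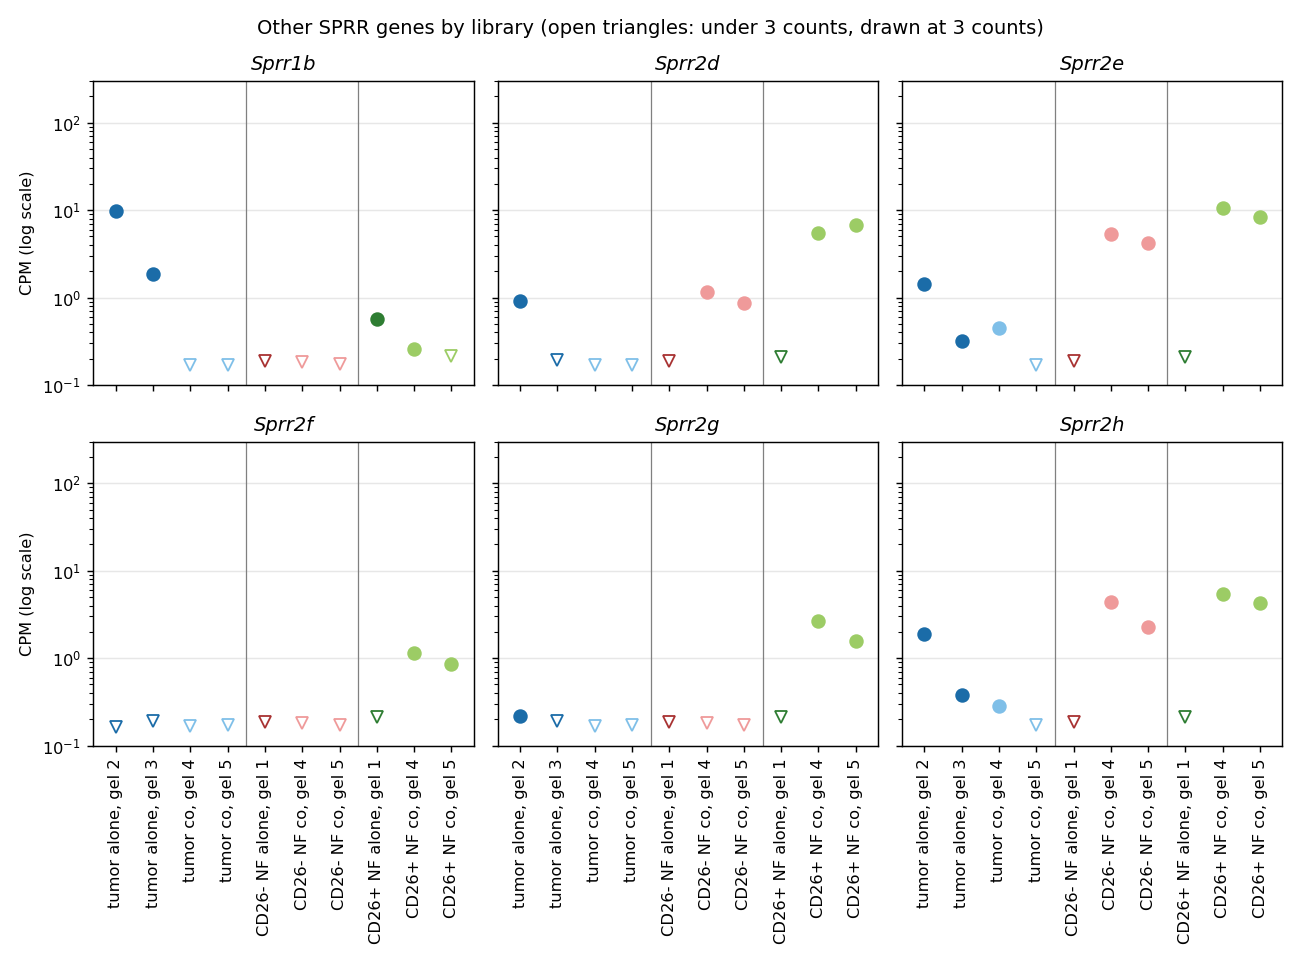
Level in CPM (log axis) of Sprr1b and 5 Sprr2 genes in each of the 10 libraries, with open triangles drawn at 3 counts for libraries under that limit. Sprr1b was highest in tumor cells alone (9.89 and 1.85 CPM), whereas each Sprr2 gene had its highest library among co-cultured CD26+ NFs, with Sprr2e at 10.5 and 8.34 CPM.

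Within the shared gels 4 and 5, tumor cells were compared with NFs with the gel as a block, and 50.6% of 15098 tested genes passed (22.8% higher and 27.9% lower in tumor cells). Stfa2 had 9.45 and 10.6 CPM in tumor cells and 0.385 to 0.495 CPM (6 or 7 counts) in NFs, and Klk10 had 4.86 and 13.2 CPM in tumor cells and 0.460 to 2.33 CPM (8 to 33 counts) in NFs. In edgeR's quasi-likelihood test the log2 difference was 2.66 for Klk10 (SE 0.52, adjusted p = 0.00572). At 6 or 7 counts in each NF library, Stfa2 passed the filter on low counts only through the tumor libraries, so its test is not read. Stfa3, at 11 and 16 counts in tumor cells and 0, 1, 0 and 8 counts in NFs, likewise entered only through the tumor libraries, and its test is not read either. Sprr1a had a log2 difference of -3.35 (SE 1.53, adjusted p = 0.109), with the NF subsets far apart. The Klk10 call was lost without tumor cells of gel 5 (adjusted p = 0.0954, in a range from 1.89e-10 over 11 alternatives). Sprr1a passed without CD26- NFs of gel 5 (adjusted p = 0.02998) and without a filter on low counts (adjusted p = 2.08e-12), and its other alternatives reached 0.418. For Stfa3 2 of 10 alternatives passed, 1 of them with 0, 1 and 0 counts left in the NFs, and none is read.

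The level in NFs as a percentage of that in tumor cells of the same gel was set beside the same figure for the 10 epithelial markers. The markers had a median of 1.97% in CD26- NFs and 2.90% in CD26+ NFs of gel 4, and of 2.02% and 5.03% in gel 5, with single markers up to 17.7%. Stfa2 lay at 4.49%, 4.08%, 3.82% and 4.69% in the same order, within the range of the markers in each library. Klk10 lay at 19.9%, 18.5%, 3.48% and 17.6%, above each marker in both NF libraries of gel 4 and within their range in gel 5. Sprr1a lay at 264%, 3703%, 37.8% and 1007%, above each marker in the 4 libraries. Stfa3 had more than 3 counts only in CD26+ NFs of gel 5, where it lay at 62.0%, and Slurp1 had at most 1 count in any NF library. These percentages divide by the level in co-cultured tumor cells, which for the members is the low side of the contrast they were chosen on. That choice can raise their percentages against those of the markers, so nothing is read from an excess over the markers. The part of epithelial RNA in the NF levels of Klk10, Stfa2 and Stfa3 was not tested.

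**Figure D5:**
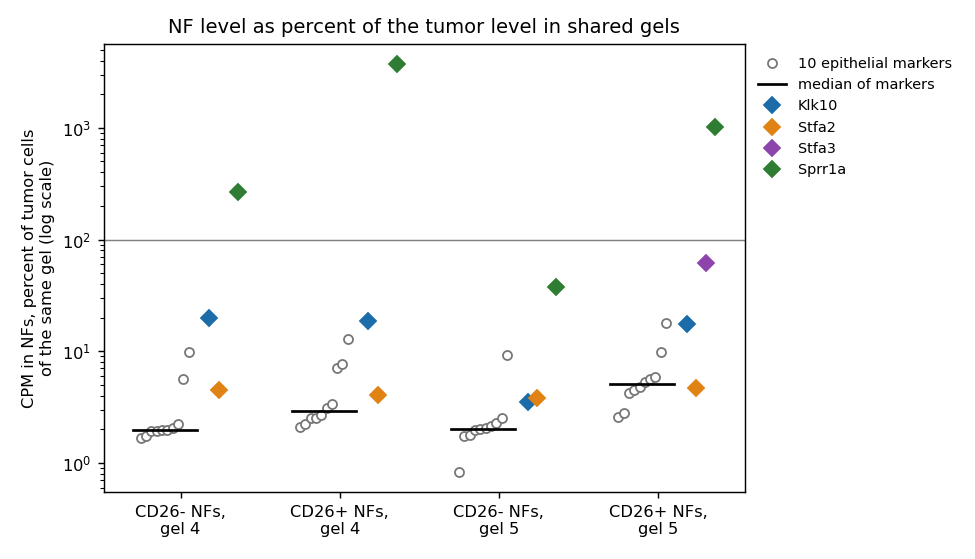
CPM in NFs as a percentage of CPM in tumor cells of the same gel (log axis) for 4 members (diamonds) and 10 epithelial markers (open circles, with a bar at their median) in the 4 co-cultured NF libraries. Sprr1a lay at 37.8% to 3703% and Stfa2 at 3.82% to 4.69%, against marker medians of 1.97% to 5.03%. For the members the tumor level divided by is the low side of the contrast they were chosen on, which can raise their percentages.

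The genes with the profile most like each member over the 10 libraries were found by the root mean square difference of log2(CPM + 0.5) profiles, each centred on its own mean. For Stfa2 these were Krt16 (0.29), the chemokine gene Cxcl3 (0.49) and Myh14, a nonmuscle myosin (0.57). For Stfa3 they were Il1f6, a cytokine of the interleukin-1 family (0.29), Zfp750 (0.41) and S100a7a (0.42). Klk10 was closest to Myh14 (0.62), Rab25 (0.63) and Ly6d (0.66), and Slurp1 to Dmkn (0.59), Oas3 (0.60) and Gsta1 (0.67). Sprr1a was closest to Ccnf (0.55), which reached 122 and 59.7 CPM in CD26+ NFs of the shared gels and 3.60 to 25.9 CPM in the other libraries, then to S100a7l2 (0.74) and Skint7 (0.80). Stfa1, with its 1 count, had a flat profile that fits evenly expressed genes and describes nothing. Among the members, Klk10 and Stfa2 were closest to each other (0.77), and Stfa2 and Sprr1a were furthest apart (3.44).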

How the data were processed

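RNA from the sorted cells of 5 gels was sequenced as polyA-selected stranded libraries. The authors deposited raw counts of reads for each gene and library, with no normalization. The submitters' processing notes name HISAT2 2.2.1 and GRCm38. How reads were assigned to genes, with or without strand, and the annotation were not given in the sources used here. A row without a gene ID held 0 counts and was left out.

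Comparisons used the quasi-likelihood F test of edgeR 4.0.16 (R 4.3.3) after filterByExpr and TMM scaling, with Benjamini-Hochberg adjustment over all genes tested and a threshold of 0.05. SEs were taken from the fold change and the F statistic. The tumor fit used 4 libraries with line and culture, the NF fit 6 libraries with subset and culture, and the fit of shared gels 6 libraries with gel and cell type. The labels pair gels 2 with 4 and 3 with 5 by line. Steps were tested on simulated data. DESeq2 1.42.0, other scalings, filters and designs, and leaving out each library were alternatives. Genes were named by a rule taking, from each list, up to 3 genes with the highest and up to 3 with the lowest fold change among those past the threshold with a mean of at least 1 CPM in tumor cells, plus the 3 genes most like each member with at least 5 CPM in a library. The members and lists were chosen with earlier results of these data known. A further allele carried by the tumor lines is not reported here.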

Additional observations from a re-analysis of the deposited data

Results flagged for a closer look

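Klk10, Stfa2 and Sprr1a were each lower in both co-cultured tumor lines than in the same line alone. Each was also higher in all 4 co-cultured NF libraries than in the NFs alone of the same subset. Stfa2 had 6 or 7 counts in each of these NF libraries and was too low in NFs to be tested. With levels under 3 counts set to 3 counts, the mean log2 change in tumor cells minus that in NFs was -4.90 for Sprr1a (-1.17 in tumor cells and 3.73 in NFs, where CD26- NFs alone had 1 count). For Klk10 and Stfa2, at 0 counts in NFs alone, the NF changes of 2.31 and 1.10 rest on the 3 counts set there. The differences of -5.62 and -4.77 (tumor changes -3.31 and -3.67) rest on them too. Counting error in the co-cultured NFs is left out, so these values are not limits. These differences were not tested, and their tumor part is the contrast on which the genes were chosen. The values of the epithelial markers in the same NF libraries, 0.869 and 1.12 CPM summed alone and 119 to 324 CPM summed in co-culture, stand beside the NF values of Klk10 and Stfa2.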

How the results depend on the processing

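The direction of the tumor contrast was the same for the 5 measured members under TMM or RLE scaling, with 0.5 CPM added in place of the 3-count limit, and in either line. With 0.5 CPM added, the Slurp1 change was -5.13 instead of -6.72. Genes past the threshold in co-cultured tumor cells numbered 2942, against 1574 with DESeq2, 1511 with all 10 libraries in the fit, 418 with a log2 change above 2 as well, and 216 to 708 without 1 library. Without the replicate block (the line pairing) edgeR called 0 genes, with 2207 at an unadjusted p under 0.05. Between lines the count of 1910 became 2917 without a filter, 945 with DESeq2, 861 with all libraries and 274 to 337 without 1 library. In fits without 1 tumor library the line differences ran from -0.61 to 0.13 for Stfa2, -1.33 to 0.51 for Stfa3 and -0.27 to 1.06 for Sprr1a and so changed sign (0.12, 0.51 and -0.27 in a further fit each), none of them past the threshold in those fits, which took the spread from the NFs as well. Without a filter on low counts the Stfa3 difference was -0.85 (adjusted p = 0.0468). In shared gels the count of 7642 was 7926 without the gel as a block and 4378 to 7388 without 1 library. Between NF subsets the count of 1130 was 1331 with gel as the block and 205 to 1309 without 1 library. For NFs in co-culture no paired fit by gel was possible because only 1 gel held NFs alone. Low counts of Stfa3 and Sprr1a in tumor cells limit their folds, and Stfa1 was below the depth of each library.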
